A study of Mus musculus with 20 samples.

Results

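The 7 genes described here, Mbp, Pmp22, Prx, Mag, S100b, Sox10 and Cnp, are used as markers of Schwann cells and of the myelin they make, and were followed as gene sums through every library of the study out of 36611 genes in all. The RNA came from inguinal subcutaneous white fat (iWAT) of 20 female C57BL/6 mice, aged 6 months, in 4 groups of 5. Control mice carried the floxed Tmem120a allele without Cre, and knockout mice carried the same floxed allele (exons 2 and 3) with Cre driven by the Adiponectin promoter, which acts in mature adipocytes and leaves the gene in the other cells of the pad. Mice of each genotype were kept for 15 weeks on a diet with 10.5% fat (low fat diet, LFD) or with 58% fat (high fat diet, HFD). The floxed line was on C57BL/6 N Tac and the Cre line on C57BL/6 J, and controls were littermates of the knockouts. Each library is 1 mouse, ribosomal RNA was depleted, and levels are given in TPM, a share of all transcripts that corrects for their length and for depth.

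Schwann cells are the glia of peripheral nerves, and reach white fat with the sympathetic and sensory nerves that supply it. Myelinating Schwann cells wrap single large axons in compact myelin, a stack of their own membrane held together by a small set of proteins and made under the control of SOX10 and EGR2. Non-myelinating Schwann cells hold bundles of thin axons, the kind that dominates in fat. Several of these genes are also transcribed in other cells, S100b in adipocytes, Pmp22 in fibroblasts and endothelium, Cnp and part of Mbp in lymphoid cells, and Sox10 in melanocytes and mammary epithelium.

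The libraries held between 54605101 and 92387737 estimated counts. Tmem120a, the targeted gene, lay at 21.5 to 74.0 TPM in knockout against 57.9 to 132 TPM in control libraries on LFD, and at 29.5 to 89.7 against 83.3 to 196 TPM on HFD, so the ranges met at 1 end on both diets. The summed level of 12 skeletal muscle fibre genes ran from 8.58 to 3813 TPM in control LFD and 14 to 1154 TPM in knockout LFD. It ran from 8.40 to 59.5 TPM in control HFD and 46.1 to 1663 TPM in knockout HFD. The paper reads muscle genes that were higher in knockout iWAT as de-repressed in fat. It draws on gene position too, from mapping of contacts with the nuclear envelope in cultured adipocytes. By in situ hybridization it also found several muscle genes in the nuclear interior in knockout iWAT. The source of the muscle transcripts was not tested here. Muscle carries its own nerves, and the part of muscle in the levels below was not tested. In whole tissue, fewer cells of a type and less RNA per cell cannot be told apart.

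Pmp22 and S100b are the members whose start regions help in reading the results, Pmp22 because it has a pair of alternative starts and S100b because it is the member that changed. The 200 bases before each start, read from the mouse genome (NCBIM37) on the + strand, are given 5′ to 3′ in lower case, with capitals for any match to GGGCGG (the GC box), ACAAAG or ACAATG (cores bound by SOX factors) or TATAAA (the TATA box), searched on both strands.
Pmp22, upstream start, chr11:62942284-62942483: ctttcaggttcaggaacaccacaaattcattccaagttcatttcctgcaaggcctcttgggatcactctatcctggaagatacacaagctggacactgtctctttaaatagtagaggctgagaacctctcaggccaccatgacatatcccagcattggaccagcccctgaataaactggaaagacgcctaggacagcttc
Pmp22, downstream start, chr11:62944814-62945013: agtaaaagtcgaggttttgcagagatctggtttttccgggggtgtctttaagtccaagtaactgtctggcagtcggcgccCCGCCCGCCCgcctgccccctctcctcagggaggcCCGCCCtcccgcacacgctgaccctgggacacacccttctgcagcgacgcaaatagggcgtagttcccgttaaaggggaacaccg
S100b, chr10:75716398-75716597: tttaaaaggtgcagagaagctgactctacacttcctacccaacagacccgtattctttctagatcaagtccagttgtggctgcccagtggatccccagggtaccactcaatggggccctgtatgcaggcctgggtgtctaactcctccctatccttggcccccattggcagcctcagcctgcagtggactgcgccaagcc

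The window before the downstream Pmp22 start lies in an intron of the transcript from the upstream start, has a GC content of 61.5%, and holds 3 GC boxes on the opposite strand, 120, 116 and 85 bases before the start, the first 2 of them sharing bases. The window before the upstream start had a GC content of 47.5% and no match to any of the 4 motifs, and the S100b window, at 56.0% GC, had none either. Among 45975 windows of the same length before protein coding starts, the median GC content was 56.5%, and 39.0% held GGGCGG, 11.5% ACAAAG, 6.93% ACAATG and 8.36% TATAAA. A match describes the letters only.

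The levels of the 7 genes were far apart. Per transcript length, Pmp22, a tetraspan protein of compact myelin, had a mean of 126 TPM over the 20 libraries and was the highest in all 20. S100b, a calcium-binding protein, and Mbp, which glues the cytoplasmic faces of myelin together, followed at 9.88 and 9.65 TPM, and their order was not fixed, with S100b above Mbp in 10 of 20 libraries. Cnp, the phosphodiesterase of non-compact myelin, came next at 5.88 TPM and was above Sox10, the transcription factor that sets Schwann cell identity, at 3.51 TPM, in 18 of 20 libraries. Prx, periaxin, which links the outer surface of the myelinating cell to its basal lamina, was at 0.719 TPM, and Mag, the adhesion protein facing the axon, at 0.0928 TPM.

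**Figure D1:**
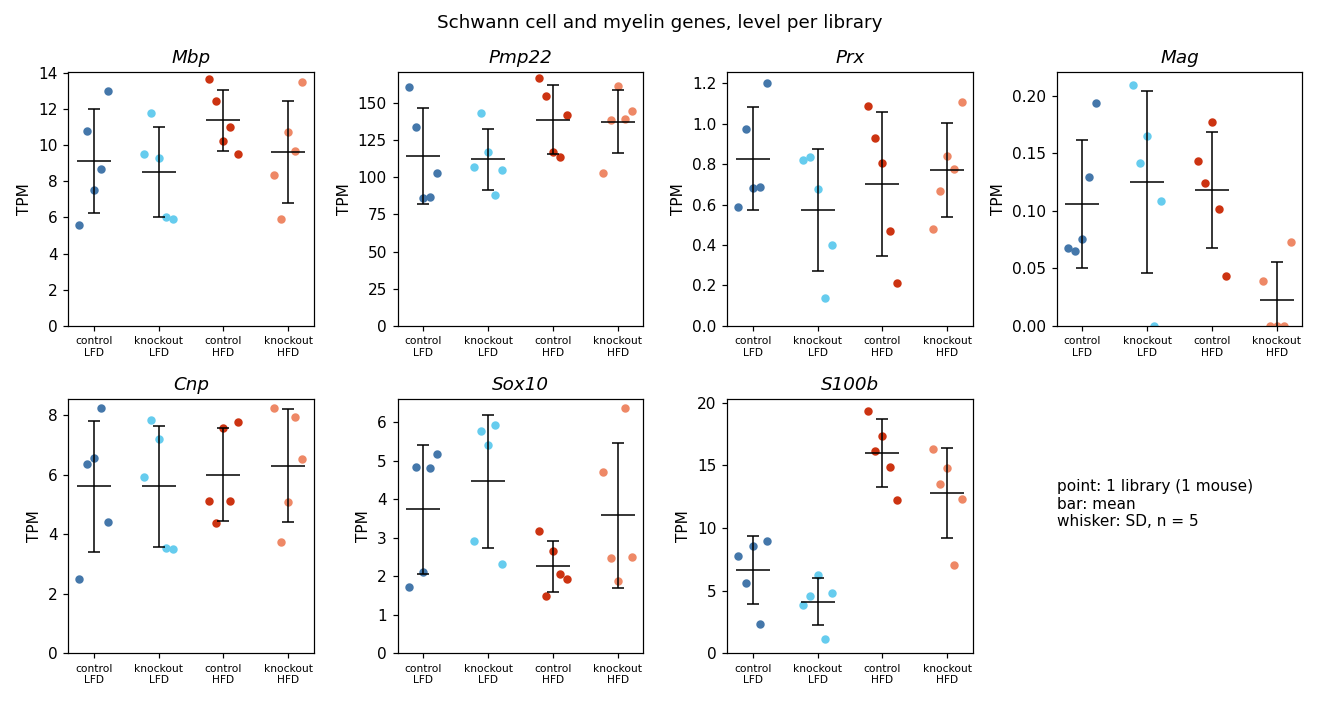
Level of each of the 7 genes in TPM (y axis, from 0) in the 4 groups (x axis), with a point for each library, the mean as a bar and the SD as whiskers (n = 5). S100b is the gene whose HFD libraries all lie above the LFD libraries of the same genotype, and 3 knockout HFD libraries are at 0 for Mag.

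S100b was higher on HFD than on LFD in both genotypes. The gene lies on chromosome 10 (75716598 to 75723904, + strand) and has 1 transcript in the annotation. The control LFD libraries read 7.77, 5.59, 8.57, 2.32 and 8.95 TPM and the control HFD libraries 19.4, 16.1, 17.4, 14.9 and 12.2 TPM. In knockout mice the LFD libraries read 3.82, 4.56, 6.27, 1.11 and 4.80 TPM and the HFD libraries 16.4, 13.5, 14.8, 7.01 and 12.3 TPM. In each genotype the lowest HFD library stood above the highest LFD library, and groups lay apart, in either direction, for 9.78% of the genes tested in controls and 7.95% in knockouts.

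The fitted increase of S100b was a log2 fold change of 1.03 ± 0.30 (standard error, SE) in controls, from a mean of 6.64 ± 2.74 TPM to 16.0 ± 2.70 TPM (SD, n = 5 each), with an adjusted p of 0.0713 in edgeR's quasi-likelihood test against a limit of 0.1. In knockouts it was 1.53 ± 0.38, from 4.11 ± 1.90 to 12.8 ± 3.57 TPM, with an adjusted p of 0.0378 in the same edgeR test. The difference between the genotypes in this response was 0.48 ± 0.50 and did not pass (edgeR, unadjusted p = 0.351). In controls the call was kept in 5 of 10 fits that left out a library, with fold changes between 0.83 and 1.18, and was lost without control LFD replicate 2 (edgeR adjusted p = 0.159) or without control HFD replicate 11, 12, 13 or 14 (edgeR adjusted p of 0.13, 0.137, 0.13 and 0.107). In knockouts it was kept in 9 of 10, and without knockout LFD replicate 6 the edgeR adjusted p was 0.103. Without control LFD replicate 5, the library with the highest sum of muscle fibre genes, the log2 fold change in controls was 1.13 (edgeR adjusted p = 0.0967). The gene overlaps Dip2a on the opposite strand (mean 3.93 TPM), and the strand setting used in counting is not given in the sources used here.

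S100b was the 1 member called of the 6 that passed the filter on low values in each diet comparison, beside 9.32% of all genes tested in controls (1427 of 15311, 676 higher and 751 lower) and 9.4% in knockouts (1476 of 15705, 714 higher and 762 lower). The median log2 fold change of the 6 was -0.04 in controls and 0.15 in knockouts, against -0.04 and 0.00 over all genes tested. The split of all calls differed between tools. On log2(TPM + 1) with limma 83.7% of calls in controls and 65.8% in knockouts were higher on HFD. The edgeR fits gave 47.4% and 48.4%, and edgeR with RLE size factors 47.9% and 46.3%. The limma fit changed the test, the measure and the scaling together. In it the median log2 fold change of all genes in controls stood at 0.13. S100b was called in both genotypes by limma too.

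Leptin (Lep), the hormone of filled adipocytes and the 1 gene of 10 white adipocyte genes called in both genotypes, rose by a log2 fold change of 2.10 ± 0.38 in controls and 2.41 ± 0.33 in knockouts (edgeR adjusted p = 0.0105 and 0.00261), and was named after its values were seen. Of that list, 2 of 10 rose and none fell in controls, beside 9.32% of all genes called. In knockouts 1 of 10 rose, beside 9.4% of all genes called. The list had medians of 0.20 and 0.42. Its summed level was 17402 to 23479 TPM in control LFD, 15413 to 20968 TPM in knockout LFD, 21965 to 32262 TPM in control HFD and 20515 to 30480 TPM in knockout HFD. The adipocytes' part in the S100b difference was not tested.

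Sox10 moved the other way between diets in control mice without passing the test. It lies on chromosome 15 (78985343 to 78994920, - strand). The control LFD libraries read 1.71, 4.85, 2.11, 4.82 and 5.19 TPM, and the control HFD libraries 3.18, 1.49, 2.65, 2.05 and 1.93 TPM. The 3 highest control LFD libraries lie above every control HFD library and the other 2 lie among them. The log2 fold change was -0.85 ± 0.31 (edgeR, unadjusted p = 0.0165, adjusted p = 0.134), and DESeq2 on the same genes called it at an adjusted p of 0.0568. Without control LFD replicate 1 edgeR called it as well, at -1.02 with an adjusted p of 0.0422. In knockouts the LFD libraries read 2.91, 5.79, 5.42, 5.93 and 2.30 TPM and the HFD libraries 4.70, 2.47, 1.87, 6.36 and 2.5 TPM, with a log2 difference of -0.32 ± 0.37 (edgeR, adjusted p = 0.71).

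The remaining myelin genes did not pass in either genotype by diet. Mbp (chromosome 18, 82644538 to 82755029, + strand) ran from 5.57 to 13 TPM in control LFD, 5.93 to 11.8 in knockout LFD, 9.53 to 13.7 in control HFD and 5.90 to 13.5 in knockout HFD, with log2 differences of HFD over LFD of 0.15 ± 0.16 and 0.09 ± 0.19. Pmp22 (chromosome 11, 62942484 to 62973049, + strand) ran from 86.3 to 161 TPM in control LFD and 114 to 167 TPM in control HFD, and from 87.9 to 143 TPM in knockout LFD and 103 to 161 TPM in knockout HFD, with differences of 0.10 ± 0.19 and 0.22 ± 0.14. Cnp (chromosome 11, 100436218 to 100453043, + strand) stayed between 2.5 and 8.25 TPM over all libraries, with differences of -0.17 ± 0.34 and 0.03 ± 0.28. All groups of these 3 genes overlap. On log2(TPM + 1) with limma the Cnp difference in controls was 0.13, the same as the median shift of all genes on that scale. An annotated Cnp transcript, with 14.4% of Cnp TPM, reaches into Dnajc7 on the opposite strand, a gene at a mean of 50.6 TPM.

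Prx and Mag are best known from myelinating Schwann cells, and both were scarce. Prx (chromosome 7, 28284343 to 28305233, + strand) had 46 to 605 estimated counts a library, at 0.588 to 1.20 TPM in control LFD, 0.136 to 0.836 TPM in knockout LFD, 0.214 to 1.09 TPM in control HFD and 0.477 to 1.11 TPM in knockout HFD. Its lowest libraries were knockout LFD replicate 9 and control HFD replicate 15, and its log2 differences of HFD over LFD were -0.51 ± 0.38 in controls and 0.35 ± 0.44 in knockouts.

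Mag (chromosome 7, 31684202 to 31699851, - strand) had 0 to 52 estimated counts and did not pass the filter on low values in any comparison. The counts were 15, 17, 23, 37 and 51 in control LFD, 52, 35, 33, 0 and 25 in knockout LFD, 38, 33, 49, 26 and 10 in control HFD and 12, 0, 0, 0 and 18 in knockout HFD. Thus Mag is listed at 0 in 3 of the 5 knockout HFD libraries and in 1 of the other 15, where a count of 0 allows up to 3 counts. The control HFD and knockout HFD values still overlap at their ends. In a fit without the filter the log2 difference of knockout over control on HFD was -2.40 ± 1.44 (edgeR, unadjusted p = 0.116, adjusted p = 0.71), a value that depends on how zeros are handled. The limit of 3 counts covers counting error only.

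No member passed the test between genotypes. On HFD 0 of 6 members were called by edgeR, 0 had an unadjusted p under 0.05 and 0 were called by DESeq2 or limma, beside 0.00657% of all genes (1 of 15228, with 99 called by DESeq2 and 3 by limma). On LFD the member counts were again 0 by edgeR, at an unadjusted p under 0.05, by DESeq2 and by limma, beside 0.00636% of all genes (1 of 15717, with 17 called by DESeq2 and 2 by limma). No member's groups were apart between genotypes, against 0.69% of genes on HFD and 1.4% on LFD. The largest difference among the 6 on HFD was that of Sox10, at 2.26 ± 0.66 TPM in control and 3.58 ± 1.89 TPM in knockout (log2 difference 0.70 ± 0.34, edgeR, unadjusted p = 0.0614). On LFD it was that of S100b, at 6.64 ± 2.74 TPM in control and 4.11 ± 1.90 TPM in knockout (-0.79 ± 0.43, edgeR, unadjusted p = 0.0939). Mbp and Pmp22 differed by -0.19 ± 0.16 and -0.02 ± 0.15 on HFD and by -0.12 ± 0.19 and -0.13 ± 0.18 on LFD. For the genotype by diet interaction 0 of 6 members passed in edgeR, DESeq2 and limma, none had an unadjusted p under 0.05, and 0.0% of the 15574 genes tested were called by edgeR (560 with an unadjusted p under 0.05, 14 called by DESeq2 and 0 by limma).

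**Figure D2:**
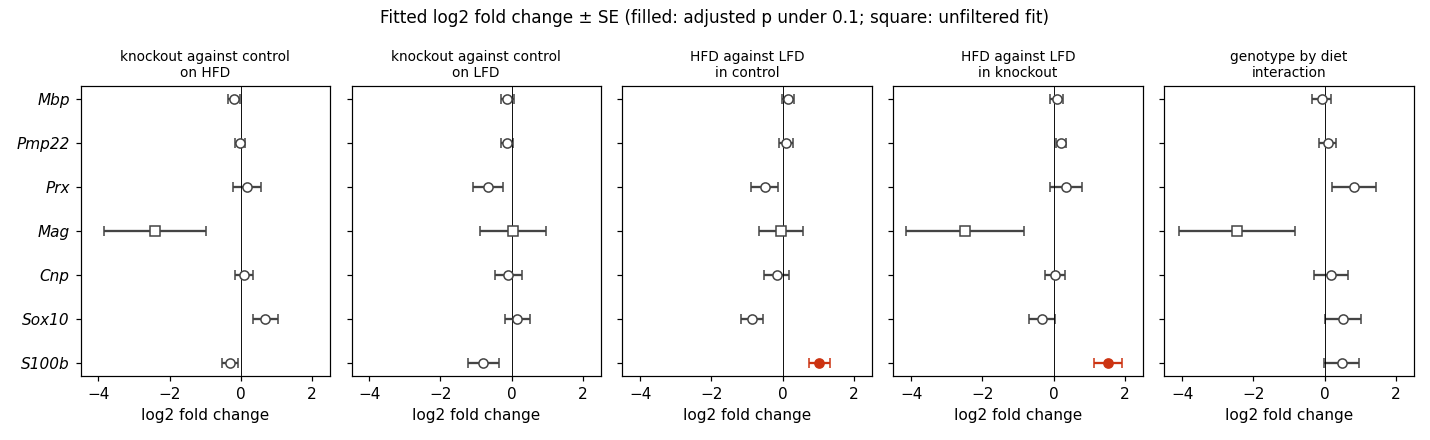
Fitted log2 fold change ± SE (x axis) of each gene (y axis) in the 5 comparisons, the first named group over the second. The filled points, S100b on HFD against LFD at 1.03 in controls and 1.53 in knockouts, are the only ones with an adjusted p under 0.1, and Mag, drawn as a square, comes from the fit without a filter and has the widest errors.

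Mbp and Pmp22 each have alternative starts that differ in where they are used. Transcripts from the far upstream start of Mbp, called golli, are made outside myelin too, while those from the inner start encode the classic myelin proteins. The 4 far upstream transcripts held 72.0% ± 13.3 of Mbp TPM over the 20 libraries (SD), at 3.55 to 10.1 TPM, and the 12 inner ones the rest, at 0.269 to 6.79 TPM. The last exon of the most abundant far upstream transcript spans the first exon of the inner ones, so reads falling there cannot be told apart. Most of the Mbp signal was thus assigned to the far upstream start in all but 1 library, control LFD replicate 5, where its share was 47.7%. That library also had the highest sum of muscle fibre genes.

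The inner Mbp transcripts varied more between mice than the gene sum did. In control HFD they were at 3.51, 3.97, 3.30, 4.54 and 3.10 TPM, in knockout HFD at 2.07, 0.468, 4.82, 3.0 and 4.22 TPM. In control LFD they were at 1.04, 4.15, 1.67, 2.84 and 6.79 TPM, and in knockout LFD at 1.17, 3.59, 0.316, 2.49 and 0.269 TPM. Values under 1 TPM were seen in knockout libraries of both diets and in no control library, but control LFD replicate 1 stood just above, at 1.04 TPM, and the ranges overlap. The knockout libraries under 1 TPM held 52.1, 51.4 and 29.2 estimated counts of the inner transcripts. The far upstream share was 67.1% ± 13.5 in control and 81.6% ± 16.7 in knockout mice on LFD (difference 14.5 percentage points, exact permutation test, two-sided, p = 0.183), and 67.2% ± 5.55 and 72.0% ± 13.4 on HFD (difference 4.80 percentage points, exact permutation p = 0.524). Levels of both classes were not related past the test over the 20 libraries (Pearson r = 0.17, permutation p = 0.473, Spearman rho = 0.34, permutation p = 0.145), and r was 0.17 without the 2 libraries farthest from the median.

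Pmp22 has an upstream start, best known from myelinating Schwann cells, and a downstream start used in many tissues, and the sequences before both are shown above. The downstream transcript had a mean of 89.5 TPM and was the larger share, 71.8% over the 20 libraries, and the upstream transcript had 35.1 TPM, or 27.4% ± 10.9. The upstream share ran from 22.4 to 40.5% in control LFD, 7.02 to 35.8% in knockout LFD, 19.2 to 53.3% in control HFD and 17.4 to 43.3% in knockout HFD. Its means were 27.9%, 21.4%, 31.2% and 29.0% in that order, and none of the 4 comparisons passed (exact permutation p of 0.31 to 0.778, smallest p possible 0.00794). Of the 8 tests on Mbp and Pmp22 shares none had a p under 0.05, and the adjusted p over the 8 ran from 0.667 to 0.984.

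**Figure D3:**
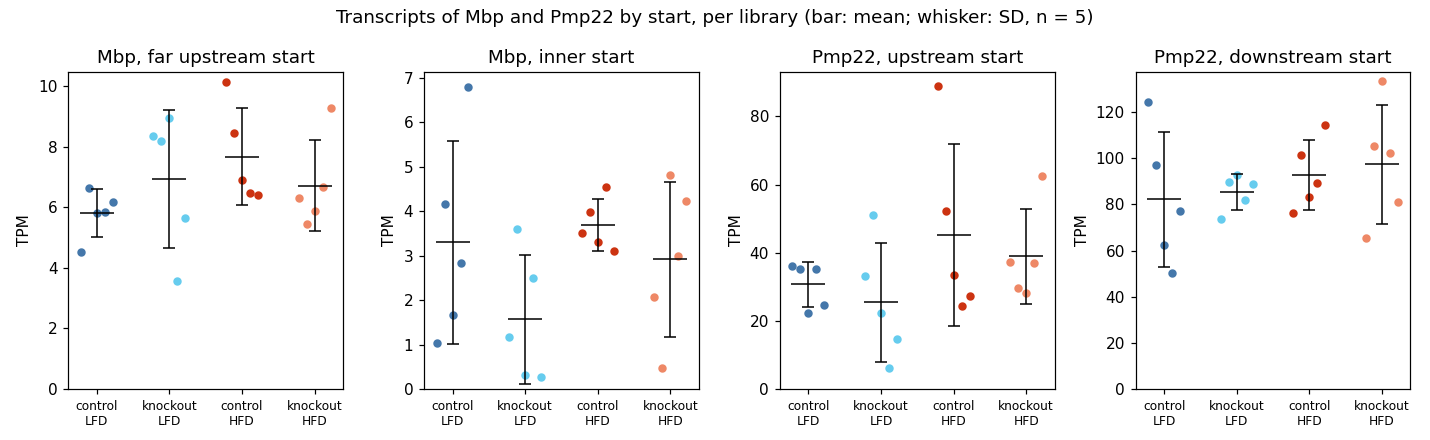
TPM (y axis, from 0) of Mbp transcripts from the far upstream and the inner start and of Pmp22 transcripts from the upstream and the downstream start, per library in the 4 groups (x axis), with means and SD (n = 5). The inner Mbp transcripts fall under 1 TPM in 3 knockout libraries and are at 1.04 TPM in the lowest control library. The upstream Pmp22 transcript reaches 89.0 TPM in 1 control HFD library.

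Most pairs of the 7 genes were not related past the test from mouse to mouse. Over 20 libraries, 1 of 21 pairs passed after adjustment: Mbp and Prx, with Pearson r = 0.68 (permutation p = 0.00118, adjusted p = 0.0248) and Spearman rho = 0.78 (permutation p = 0.00013, adjusted p = 0.00273). With group means subtracted r was 0.77 (permutation p within groups = 8e-05, adjusted p = 0.00168), it was 0.84 within the LFD and 0.52 within the HFD libraries, and 0.77 without the 2 libraries farthest from the median. With a pseudocount of 0.1 in place of 1 the call was lost (r = 0.62, adjusted permutation p = 0.0674). Prx and Mag were related only with group means subtracted (r = 0.76, permutation p = 0.00092, adjusted p = 0.00966), against r = 0.44 (adjusted permutation p = 0.223) as measured and 0.26 without the 2 farthest libraries. The median r of the 21 pairs was 0.15, with a range from -0.54 for S100b and Sox10 to 0.68. It was above 0 in 16 of 21 pairs, and 4 pairs had an unadjusted permutation p under 0.05.

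**Figure D4:**
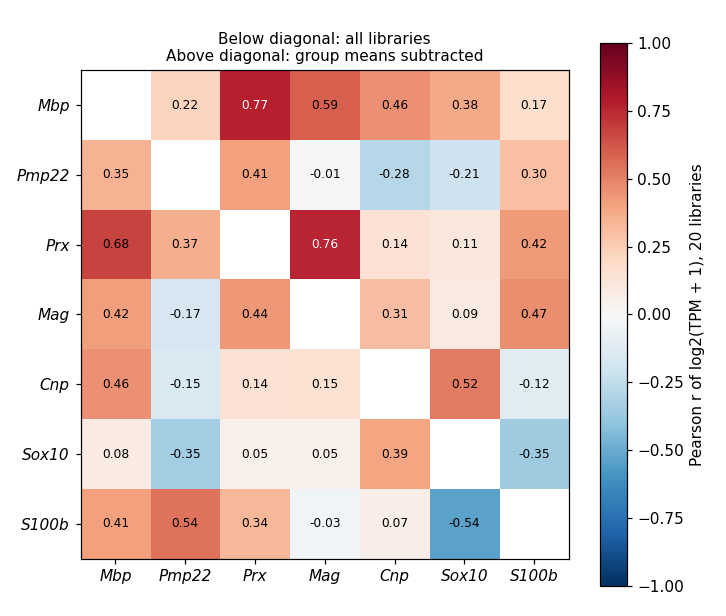
Pearson r of log2(TPM + 1) between the 7 genes over 20 libraries, as measured below the diagonal and with group means subtracted above it. Mbp with Prx (0.68 and 0.77) and Prx with Mag above the diagonal (0.76) are the strongest, and the other pairs lie closer to 0 or below it.

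Levels of other cell type lists followed some members. Of 112 pairs of a member and a list, 6 passed, and none of these passed with group means subtracted. Pmp22 followed the 8 endothelial genes (r = 0.75, permutation p = 0.0002, adjusted p = 0.0134, rho = 0.73, permutation p = 0.00047) and the 12 Schwann cell receptors and adhesion genes (r = 0.70, permutation p = 0.00053, adjusted p = 0.0148, rho = 0.68, permutation p = 0.0013), the latter list led by Itga6, an integrin that endothelium makes too. Both lost the call without the 2 farthest libraries (r = 0.62 and 0.55, adjusted permutation p = 0.137 and 0.175). Cnp followed the 9 lymphocyte genes (r = 0.63, permutation p = 0.00243, adjusted p = 0.0454, rho = 0.56, permutation p = 0.0117), with r = 0.57 and an adjusted permutation p of 0.175 without the 2 farthest libraries. The inguinal pad holds a lymph node, and the summed lymphocyte level ran from 7.63 to 176 TPM over the libraries.

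S100b passed with 3 lists, but its levels separate by diet within each genotype, so r is given within each diet, with both genotypes pooled. With white adipocyte genes it was 0.28 (permutation p = 0.437, rho = 0.27, permutation p = 0.449) over the 10 LFD libraries and 0.66 (permutation p = 0.0247, adjusted p = 0.591, rho = 0.58, permutation p = 0.0888) over the 10 HFD libraries. With the endothelial list it was 0.50 and 0.07, and with Schwann cell receptors and adhesion genes 0.26 and 0.36, and none of these passed after adjustment.

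**Figure D5:**
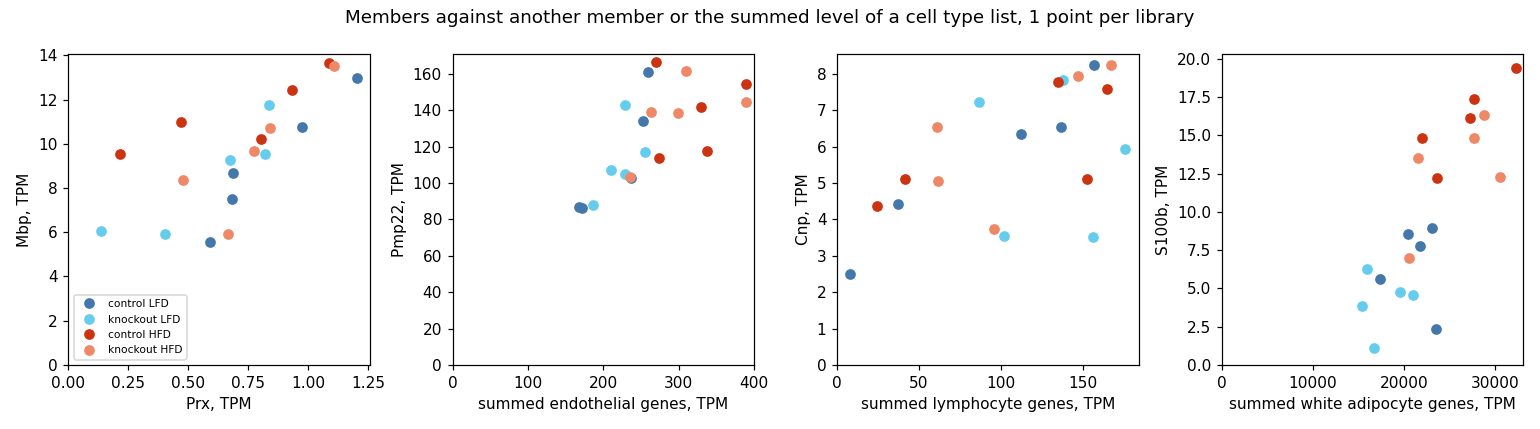
TPM of Mbp, Pmp22, Cnp and S100b (y axes) against TPM of Prx or the summed TPM of endothelial, lymphocyte or white adipocyte genes (x axes), with a point for each of 20 libraries coloured by group. The S100b points separate by diet along the y axis within each genotype.

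The genes most like each member in pattern, taken as the highest Pearson r of log2(TPM + 1) over 20 libraries among the 13971 other genes that averaged 1 TPM or more, differed from member to member. For S100b they were Slc6a13 (0.94), Apol6 (0.93) and Sncg (0.93), for Cnp Hmha1, Ptpn18 and Pycard (0.91, 0.91 and 0.90), for Sox10 Anxa9, Col4a6 and Josd2 (0.90, 0.84 and 0.82). For Pmp22 they were 5730508B09Rik, Csgalnact1 and Fam84a (0.89, 0.86 and 0.86), for Mbp Sirt2 and Ing4 (0.87 and 0.87), for Prx Hexim1, Mesdc2 and Egfl7 (each 0.81 to 0.82) and for Mag 4831426I19Rik, Tnks and Rpap1 (0.82, 0.81 and 0.80). With group means subtracted Cnp was closest to Hmha1, Ccl5 and Il2rb (0.94, 0.94 and 0.93), and Anxa9 (0.87) and Slc6a13 (0.82) stayed among the 3 closest to Sox10 and S100b. Prx was then closest to Egfl7 (0.92), a gene of the endothelial list, and which cells made Prx was not tested. For the mean z-score of Mbp, Prx, Mag and Sox10 the closest were Coro7, Plekhh3, Hdac7, Numa1 and Gga1 (0.89 to 0.86). These are the highest of many values, and no gene appears under more than 1 member in this list.

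Of the 12 other compact myelin and myelin membrane genes, Mal, a raft protein of myelin membranes, was at 1.43 to 4.75 TPM and Pllp, plasmolipin, at 0.604 to 3.60 TPM. In controls 1 of 7 tested fell on HFD and none rose (median log2 fold change -0.45), beside 9.32% of all genes called there. Of the 7, 5 had an unadjusted p under 0.05, as had 3166 of the 15311 genes tested. In knockouts 1 fell and 1 rose of 6 (median -0.28), beside the 9.4% of all genes called there. Drp2, which sits with periaxin at the outer membrane, fell in both, by -0.94 ± 0.28 and -0.94 ± 0.22 (edgeR adjusted p = 0.0758 and 0.0282), and Pllp rose in knockouts by 1.40 ± 0.30 (edgeR adjusted p = 0.0197). In controls Pllp was not called, at 1.07 to 2.59 TPM on LFD and 2.49 to 3.51 TPM on HFD. Drp2 was named after its values were seen. Mal differed by -0.45 ± 0.18 and -0.26 ± 0.38, neither past the test (edgeR adjusted p = 0.173 and 0.785).

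Of 8 Schwann cell transcription factors, 6 were tested. None were called in controls by edgeR (2 with an unadjusted p under 0.05, 2 called by DESeq2 and 3 by limma), beside 9.32% of all genes. In knockouts 1 rose and 1 fell, beside 9.4% of all genes called. These were Jun (0.50 ± 0.15, edgeR adjusted p = 0.0728) and Tead1 (-1.01 ± 0.20, edgeR adjusted p = 0.0153), the latter named after its values were seen. Egr2, the factor of the myelin program, was at 3.24 to 25.2 TPM and differed by 0.05 ± 0.31 and 0.39 ± 0.42. Among 12 Schwann cell receptors and adhesion genes, 10 were tested and 0 called by edgeR in either genotype by diet (2 and 2 with an unadjusted p under 0.05, 2 and 1 called by DESeq2, 1 and 0 by limma). Erbb3, the receptor for axonal neuregulin, was at 1.61 to 9.09 TPM and differed by -0.83 ± 0.29 and -0.43 ± 0.27. Of the non-myelinating Schwann cell genes Apod, a lipid carrier, rose in knockouts (0.57 ± 0.16, edgeR adjusted p = 0.0597), 1 of 5 tested, beside 9.4% of all genes called. In controls 0 of 4 were called (0 with an unadjusted p under 0.05, 0 by DESeq2 or limma), beside 9.32% of all genes. Scn7a, the highest of them, was at 52.8 to 121 TPM. Scn7a and Apod averaged 91.7 and 46.7 TPM, beside 0.275 TPM for Gfap of the same list. Among the transcription factors Zeb2 averaged 146 TPM, and Pou3f1 and Sox2 0.0137 and 0.00491 TPM. Which cells of the pad made the genes of these lists was not tested.

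The 5 myelin lipid enzymes, led by Cers2, gave 0 calls among 3 tested in each diet comparison (0 with an unadjusted p under 0.05, 0 by DESeq2 or limma). Beside them edgeR called 9.32% of all genes in controls and 9.4% in knockouts. Between genotypes no gene of these 5 lists was called by edgeR, DESeq2 or limma on either diet, and at most 1 gene of a list had an unadjusted p under 0.05. Over all genes edgeR called 0.00657% between genotypes on HFD and 0.00636% on LFD. The oligodendrocyte genes, which would mark central myelin, summed to 0.253 to 2.35 TPM, of which Cldn11 made up the most, while Mog is listed at 0 in 14, Opalin in 19 and Olig2 in 15 of 20 libraries.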

How the data were processed

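Total RNA was depleted of ribosomal RNA, prepared with a strand-marking kit and sequenced as paired ends. The deposited table gives, for each Ensembl transcript and each of 20 libraries, the estimated count and the TPM that the authors obtained with Salmon 0.13.1 against mouse transcripts (NCBIM37, mm9). STAR 2.5.3 is named in the submitters' processing notes too. Of 96533 transcripts, 94334 (97.7%) matched the annotation and were summed to 36611 genes. Unmatched transcripts held 0.377 to 0.581% of counts and were left out.

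Estimated counts were rounded and tested with edgeR 4.0.16 (quasi-likelihood, TMM scaling, genes averaging 0.5 TPM or more over the libraries compared), with Benjamini-Hochberg adjustment over all genes and the limit of 0.1 that the study used with DESeq2. SE is the fold change over the root of F. DESeq2 1.42.0 and limma 3.58.1 on log2(TPM + 1) were alternatives, as were RLE size factors, no filter, transcript length offsets, leaving out each library and 1 fit of all 20 libraries. The fits were tested on counts simulated for HFD against LFD in controls only. Of 100 genes with a true 2-fold change edgeR called 63, DESeq2 74 and limma 57. Correlations used log2(TPM + 1) with 100000 permutations, and transcript shares all 252 assignments. The members and the gene lists were chosen with earlier results of these data known. The genes named were the 7 members, Tmem120a, the 2 to 4 genes of a list with the highest mean TPM, and the genes closest in pattern to a member (3 each) or to the mean z-score of 4 of them (5), unless said otherwise, and a few genes that this rule names are not reported here. Controls were littermates of knockouts, but the labels do not tie libraries to litters, so litter was in no fit.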

Additional observations from a re-analysis of the deposited data

Results flagged for a closer look

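The share of Pmp22 TPM from the upstream start in control LFD replicate 4 was 40.5%, the highest of its group of 5, and the gap to the next library at 26.4% was 0.783 of the group's range, over the limit of 0.71. It was the only one of 36 sets of 5 libraries tested (the 7 genes and the transcript shares of Mbp and Pmp22 in each group) in which an end value passed that limit, and chance alone gives about 1 in 20. Pmp22 as a whole was at 87.0 TPM in that library, the second lowest of its group, with 50.2 TPM from the downstream start, the lowest of all libraries. The cause was not tested.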

How the results depend on the processing

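No paired analysis was possible because the replicate numbers run on through the groups, so that no number is shared. The S100b calls by diet held under DESeq2, limma, RLE size factors, no filter, length offsets, 1 fit of all libraries and the newer edgeR method in both genotypes. Of 669 refits of member fold changes 622 kept their direction and side of the limit and 37 changed sign, none of them of S100b. With 5 mice a group small differences in Prx and Mag were not detectable, and 2-fold differences in any member could be missed. Estimated counts of alternative transcripts depend on how shared reads were divided.

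Knockout against control on HFD called 99 genes with DESeq2, 3 with limma, 26 without the filter, 5 with length offsets, 3 with all libraries in 1 fit, 34 with the newer edgeR method, and 105 and 139 with DESeq2 plus offsets or without the filter, and 1 to 58 leaving out a library (10 when replicate 12 was dropped, 58 when replicate 21 was). On LFD the counts were 17, 2, 2 with all libraries, 17 and 25 with DESeq2 plus offsets or unfiltered, and 1 to 2 leaving out a library. HFD against LFD gave 2205 and 2165 genes with DESeq2 and DESeq2 unfiltered in controls (780 to 1845 leaving out a library) and 2223 and 2217 in knockouts (753 to 1355), and the interaction 14, 16 with offsets and 27 unfiltered. Called members in the diet comparison of controls numbered 2 with DESeq2 in each of its 3 settings and 0 to 2 leaving out a library, and in knockouts 0 to 1. Pairs of members past the test numbered 0 with a pseudocount of 0.1, 2 with group means subtracted and 2 without the 2 farthest libraries, and pairs with a list 0 with group means subtracted. The causes were not tested.

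On log2(TPM + 1) with limma the sign turned for Cnp between genotypes on LFD (0.016) and between diets in controls (0.13), and for the Pmp22 interaction (-0.015). Leaving out a library, knockout over control on HFD ran from -0.11 to 0.060 for Pmp22, -0.054 to 0.41 for Prx and -0.062 to 0.23 for Cnp, and on LFD from -0.21 to 0.042 for Pmp22, -0.24 to 0.36 for Mag, -0.019 to 0.31 for Sox10 and -0.31 to 0.21 for Cnp. HFD over LFD ran from -0.19 to 0.26 for Mag and -0.37 to 0.14 for Cnp in controls, and from -0.010 to 0.20 for Mbp and -0.13 to 0.19 for Cnp in knockouts. The interaction ran from -0.20 to 0.032 for Mbp, -0.083 to 0.18 for Pmp22 and -0.12 to 0.40 for Cnp. The far upstream Mbp share ran from -0.21 to 9.05 percentage points between genotypes on HFD and -4.76 to 3.65 between diets in controls, and the upstream Pmp22 share from -5.83 to 3.26 and -2.13 to 6.56.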

Other observations

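The 13 axon and neuron genes summed to 2.45 to 6.45 TPM over the 20 libraries, of which Stmn2, a microtubule regulator of growing axons, made up the most (1.25 to 4.36 TPM), while Th and Dbh, the noradrenaline enzymes, are listed at 0 in 17 and 18 libraries, and at most 2 of the list passed the filter on low values. Of 10 nerve growth factors and ligands 5 were tested and 0 were called in either diet comparison by edgeR (2 and 2 with an unadjusted p under 0.05, 1 and 1 called by DESeq2, 1 and 1 by limma). Over all genes tested edgeR called 9.32% in controls and 9.4% in knockouts, so 0 of 5 does not set the list apart. Nrg4, a neuregulin made by adipocytes, was the highest of them at a mean of 67.3 TPM.

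Genes of other cell types were called by diet as well, beside 9.32% of all genes tested in controls and 9.4% in knockouts. Of 8 endothelial genes 3 rose on HFD in controls and 0 were called in knockouts by edgeR (2 with an unadjusted p under 0.05, 1 called by DESeq2, 0 by limma). Of 10 fibroblast and progenitor genes 3 fell in controls, and in knockouts 2 fell and 1 rose. Of 12 skeletal muscle fibre genes 10 were lower in control HFD than in control LFD, by a median log2 fold change of -5.75, with 12 of 12 having an unadjusted p under 0.05, while DESeq2 called 5 and limma 1. Between genotypes on HFD 12 of 12 were higher in knockout (median log2 fold change 5.50), with 0 called by edgeR, 10 by DESeq2 and 0 by limma. On LFD 12 of 12 were lower in knockout (median -0.89), with 0 called by any of these. Over all genes edgeR called 0.00657% between genotypes on HFD and 0.00636% on LFD. In the other calls by diet 1 of 10 mammary and skin epithelium genes fell and 1 of 8 macrophage genes rose in controls, and 1 of 9 lymphocyte genes and 1 of 4 melanocyte genes tested fell in knockouts. The summed mammary and skin epithelium genes ran from 196 to 569 TPM and the melanocyte genes from 9.77 to 28.8 TPM, and neither followed Sox10 past the test (r = 0.30 and 0.34, permutation p = 0.193 and 0.144, each with an adjusted p over 0.4). Csn3 (mean 217 TPM) and Mitf (mean 11.8 TPM) made up the most of these sums. The correlations thus mainly follow Csn3 and Mitf and cannot show whether either cell type adds to Sox10.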
